A study of Mus musculus with 6 samples.

Results

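The genes described here are 10 feedback inhibitors of mitogen-activated protein kinase (MAPK) signaling, namely the dual-specificity phosphatase genes Dusp1, Dusp2, Dusp4, Dusp5, Dusp6 and Dusp10, the Sprouty genes Spry1 and Spry2, and the Sprouty-related genes Spred1 and Spred2. They were taken by gene symbol from a table of 22322 genes, each symbol matched 1 row, and all 10 passed the filter on low counts. Their RNA was measured by RNA-Seq in CD4 and CD8 double-positive (DP) thymocytes sorted from the thymus of untreated mice. The control group held 3 libraries from mice labelled WT (Paxbp1fl/fl), which carry the floxed alleles without Cre. The cKO group held 3 libraries from mice labelled Paxbp1 cKO (Paxbp1fl/fl Lckcre), in which Cre under the Lck promoter removes exon 8 of Paxbp1 in T lineage cells. Both groups were thus homozygous for the floxed allele, and the presence of Cre and the loss of Paxbp1 cannot be told apart. The mice were littermates of 4 to 7 weeks of age and of mixed sexes. The labels do not state whether each library came from 1 mouse, so the p-values measure the spread between these libraries.

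In thymocytes, signals from the T cell receptor reach the kinase ERK through Ras, Raf and MEK, while stress and other receptor signals reach the kinases JNK and p38. MAPK phosphatases switch these kinases off by removing phosphate from the threonine and tyrosine of their activation loop, and many of their genes are themselves switched on by the kinases they restrain, which closes a negative feedback loop. Sprouty and Spred proteins act higher in the cascade, where they limit the activation of Ras and Raf.

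Of the 10 genes, Dusp6 alone passed the threshold, an adjusted p below 0.05 with a log2 fold change beyond 1 in either direction. Of all tested genes 2.76% passed it, and 10.4% had an adjusted p below 0.05. Dusp6 was lower in the cKO libraries by 3.17-fold, and its call was lost without cKO library 3. The genes of the inducible nuclear phosphatases Dusp1, Dusp2 and Dusp5 had higher means in the cKO libraries without passing, and Spry1 and Spred1 had lower means without passing. The genes lie on different chromosomes, except Dusp2 and Spred1, which are both on chromosome 2. By the GENCODE M21 annotation of build GRCm38, Dusp6 (ENSMUSG00000019960) lies on the plus strand of chromosome 10 from 99263231 to 99267489, with 3 exons in its longest protein-coding transcript of 2796 nt. No other annotated gene overlaps Dusp6, Dusp2, Dusp4, Spry2, Spred1 or Spred2. Genes on the other strand overlap Dusp1 (Ergic1 and Gm8225, with the models AC122252.4 and AC122252.1 on its own strand), Dusp5 (AC137853.2), Dusp10 (1700056E22Rik) and Spry1 (Gm42922). These sources do not say if reads were counted by strand, so reads of such pairs may not be separated.

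The sequence just before the start of transcription is shown for Dusp6, the gene that fell, and for Dusp1, Dusp2 and Dusp5, the phosphatase genes with the highest fold changes among the 10. These are RefSeq windows on GRCm38.p6, written 5′ to 3′ on the strand of the gene, and capitals mark matches to 7 motifs of signal-responsive promoters.
Dusp6: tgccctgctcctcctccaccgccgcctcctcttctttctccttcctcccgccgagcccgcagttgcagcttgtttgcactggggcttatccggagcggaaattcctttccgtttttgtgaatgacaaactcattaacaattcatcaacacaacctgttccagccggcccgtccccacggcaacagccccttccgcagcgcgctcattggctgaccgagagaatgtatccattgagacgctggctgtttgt
Dusp1: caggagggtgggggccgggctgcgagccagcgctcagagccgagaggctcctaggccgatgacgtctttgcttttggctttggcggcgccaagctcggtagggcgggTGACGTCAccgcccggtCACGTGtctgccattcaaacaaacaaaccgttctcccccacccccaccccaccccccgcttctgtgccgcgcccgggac
Dusp2: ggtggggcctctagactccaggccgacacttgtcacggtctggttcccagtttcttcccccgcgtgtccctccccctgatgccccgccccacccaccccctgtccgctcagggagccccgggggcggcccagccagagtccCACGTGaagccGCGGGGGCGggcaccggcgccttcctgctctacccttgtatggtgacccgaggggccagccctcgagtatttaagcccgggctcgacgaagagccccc
Dusp5: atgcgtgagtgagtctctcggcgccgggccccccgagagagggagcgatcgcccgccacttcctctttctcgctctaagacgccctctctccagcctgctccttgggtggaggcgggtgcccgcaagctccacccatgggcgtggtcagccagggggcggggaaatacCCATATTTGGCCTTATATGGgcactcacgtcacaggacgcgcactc
The window of Dusp6 is chr10:99262981-99263230 on the plus strand, that of Dusp1 chr17:26508520-26508722 on the minus strand, that of Dusp2 chr2:127335909-127336158 on the plus strand and that of Dusp5 chr19:53528895-53529108 on the plus strand. The last 47 bases before the start of Dusp1 and the last 36 before that of Dusp5 are not printed, since GENCODE annotates them as transcribed. The motifs were searched on both strands of the 250 bases before the start, in 9 of the 10 genes (all but Dusp4) and in 32851 windows of all genes. They were the cyclic AMP response element TGACGTCA, the AP-1 site TGANTCA, the Ets site CCGGAA, the Egr site GCGNGGGCG, the E-box CACGTG, the TATA box TATAAA and the CArG box, which binds serum response factor. The window of Dusp6 held a match to 0 of these motifs, and so did those of Dusp10, Spry1, Spry2, Spred1 and Spred2. Other forms of these sites, and sites outside the window, were not searched. Dusp1 held the cyclic AMP response element, from 143 to 136 bases before the start, which 1.55% of all windows hold, and an E-box from 126 to 121 bases before it. Dusp2 held an E-box and an Egr site, which 6.02% and 4.70% of all windows hold. Dusp5 held a pair of adjoining CArG boxes that do not overlap, from 82 to 63 bases before the start, and 1.47% of all windows hold this motif. The Ets, AP-1 and TATA motifs were in none of the 9 windows, and 12.0%, 6.75% and 12.4% of all windows hold them. With shares this small, 9 windows are too few to show a lack. The 9 windows were 56.0% to 70.8% G and C, against a median of 52.4% over all windows, and the shares were not matched for this.

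The libraries held between 18963775 and 26252248 counts (median 20697245), and levels are given as counts scaled to a common library size (CPM), with edgeR's TMM factors. On that scale 1 count was worth 0.0381 to 0.0527 CPM. Of the 22322 genes 11488 were tested, and a gene is said to have risen or fallen at an edgeR adjusted p below 0.05. The fold change is given throughout as log2FC, the log2 of cKO over control, with its standard error (SE). Paxbp1 itself had 318 to 774 counts in the control libraries and 851 to 1075 in the cKO libraries (log2FC 0.92, edgeR adjusted p = 0.0977). The counts were thus not lower in the cKO libraries, but they cover the whole gene and do not measure exon 8, so they do not check the labels. The study reported loss of Paxbp1 in sorted DP thymocytes by qPCR and western blot. Of 12 DP thymocyte genes such as Cd4, Cd8a and Rag1, all were detected, with a summed level of 14200 to 16600 CPM in the control libraries and 10600 to 12400 CPM in the cKO libraries, and 4 fell and 0 rose. Of 20 macrophage markers 11 were tested, 4 rose and 0 fell. Their summed level was 19.3 to 47.6 CPM in the control libraries and 62.2 to 83.3 CPM in the cKO libraries. Mertk, Marco and Vsig4 were at 0 in every library, while Adgre1 was at 0 in the control libraries and had 42 to 52 counts in the cKO libraries. Of 12 dendritic cell markers 2 of 6 tested were higher, with summed levels of 22.8 to 48.2 and 68.8 to 119 CPM. A list of heat shock genes summed to 3340 to 3740 CPM in the control and 5300 to 6020 CPM in the cKO libraries, with 5 of 7 tested genes higher. Hspa8 alone had means of 1990 and 3480 CPM in these groups. Hspa1a and Dnajb1 did not pass (log2FC 1.53 and -0.18, edgeR adjusted p = 0.0635 and 0.327). Whether the list reflects tissue handling was not tested. The part of all these lists in the differences described below was not tested, and in sorted bulk RNA fewer cells of a type and less RNA per cell cannot be told apart.

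The levels of the 10 genes spanned a wide range in the control libraries, as read from the authors' FPKM values, which are scaled to gene length and so allow genes to be compared. Dusp1 and Dusp5 had the highest levels, at 380 ± 18.4 and 374 ± 170 FPKM (mean ± S.D., n = 3), and their ranges overlapped. Dusp10 followed at 181 ± 62.2 FPKM, and its range overlapped that of Dusp5 but not that of Dusp2. Dusp2 and Dusp6 stood at 70.9 ± 7.35 and 63.7 ± 13.3 FPKM with overlapping ranges, and so did Spry1 and Dusp4 at 20.4 ± 3.58 and 15.3 ± 4.60 FPKM. Spred2, Spred1 and Spry2 were the lowest, at 7.01 ± 0.842, 4.25 ± 0.901 and 1.83 ± 0.460 FPKM, each below the range of the gene before it. Of the 10 genes, these DP thymocytes thus held mostly RNA of the phosphatase genes and little of the Sprouty and Spred genes. In the cKO libraries Dusp6 stood at 20.4 ± 9.15 FPKM (mean ± S.D., n = 3), where its range met that of Dusp4 at 15.6 ± 3.10 FPKM and no longer that of Dusp2 at 104 ± 34.6 FPKM. Dusp5 and Dusp1, at 546 ± 63.5 and 529 ± 199 FPKM, again had overlapping ranges at the top.

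Dusp6 made up 3.99%, 6.18% and 7.57% of the summed FPKM of the 10 genes in control libraries 1, 2 and 3. In cKO libraries 1, 2 and 3 its share was 1.79%, 1.33% and 1.03%. The shares of Dusp6 did not overlap between the groups. Nor did those of Spry1, at 1.42% to 2.32% in the control libraries and 0.68% to 1.19% in the cKO libraries. A share also depends on the levels of the other genes in the sum. Dusp1, Dusp5 and Dusp10 together formed the bulk of the sum in every library, and the sum itself lay between 913 and 1400 FPKM in the control libraries and between 1150 and 1730 FPKM in the cKO libraries, with overlap.

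**Figure D1:**
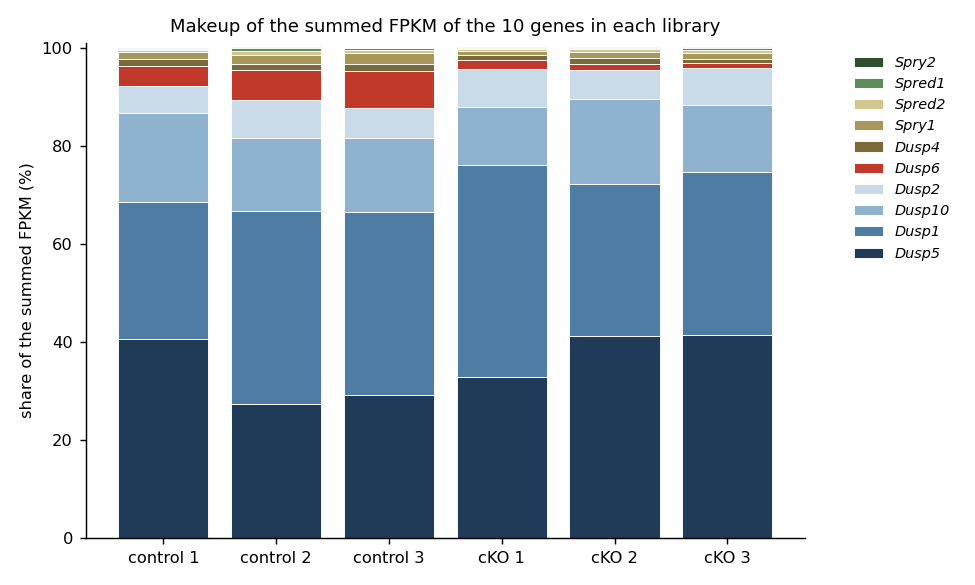
Share of each of the 10 genes (percent, vertical axis) in their summed FPKM in each of the 6 libraries (horizontal axis), as stacked bars. The red band of Dusp6 covers 3.99% to 7.57% in the control libraries and 1.03% to 1.79% in the cKO libraries.

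Dusp6 encodes the cytoplasmic phosphatase that acts on ERK rather than on JNK or p38. Control libraries 1, 2 and 3 had 2880, 3002 and 5559 of its counts, and cKO libraries 1, 2 and 3 had 1809, 793 and 869. Normalized, these were 149, 154 and 216 CPM in the control libraries and 82.6, 41.3 and 40.1 CPM in the cKO libraries. Every cKO library lay below every control library, and cKO library 1 was the nearest to the controls. The mean fell from 173 ± 37.0 to 54.7 ± 24.2 CPM (n = 3 each, ± S.D.). This was a log2FC of -1.66 (SE 0.27, 95% confidence interval -2.26 to -1.06, edgeR adjusted p = 0.00796). By p-value Dusp6 ranked 134 among the 11488 tested genes and 92 among those with a negative fold change. An exact two-sided permutation test over the libraries gave p = 0.1, the smallest that 3 libraries against 3 allow. DESeq2 gave a log2FC of -1.65 (adjusted p = 5.94e-09) and limma-voom one of -1.73 (adjusted p = 0.00454). With 1 library left out in turn the log2FC lay between -2.09 and -1.48, and the call was lost without cKO library 3 (log2FC -1.48, edgeR adjusted p = 0.0522).

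**Figure D2:**
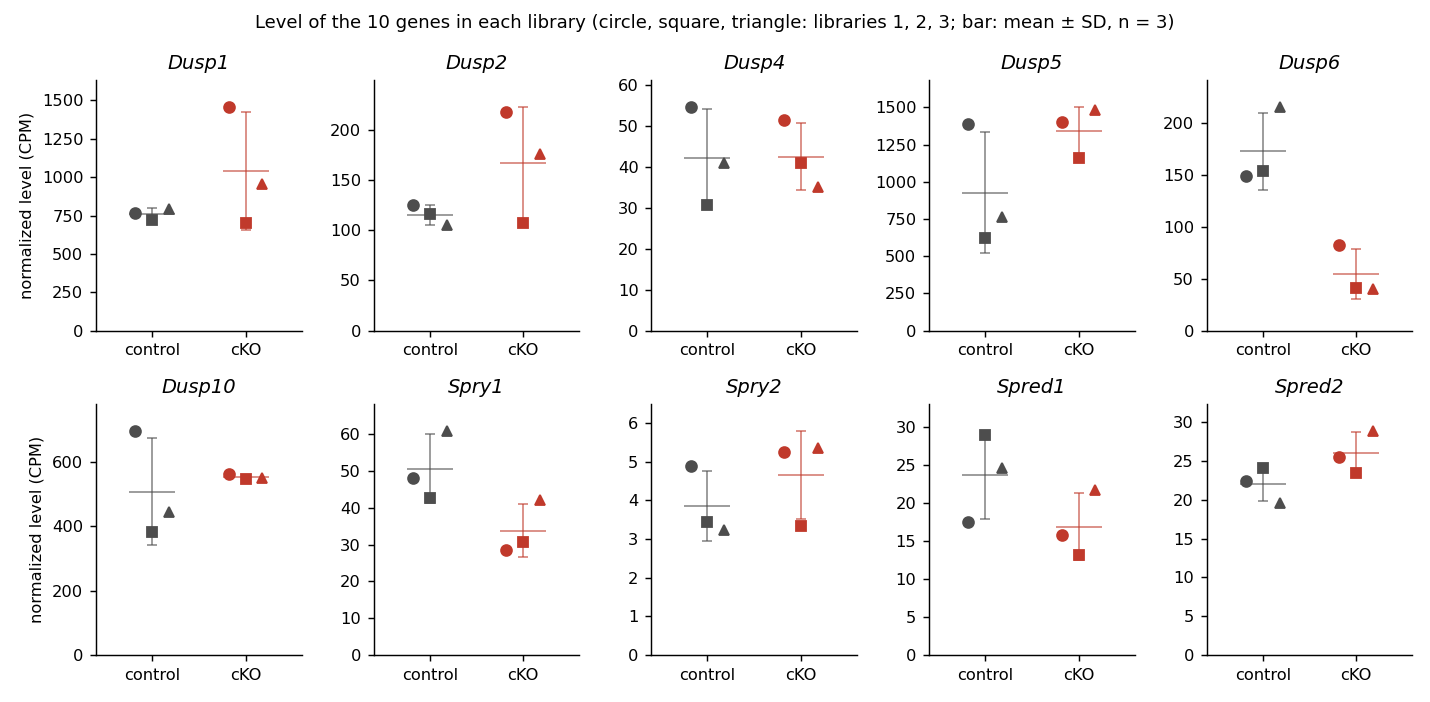
Normalized level (CPM, vertical axis from 0, 1 panel per gene) of the 10 genes in control and cKO libraries, where circles, squares and triangles are libraries 1, 2 and 3 and bars give the mean ± S.D. of 3 libraries. The groups are apart for Dusp6 (149 to 216 against 40.1 to 82.6 CPM) and Spry1 (42.7 to 60.9 against 28.6 to 42.1 CPM) and overlap for the other 8 genes. They are apart for 33.0% of all tested genes.

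Genes of the inducible nuclear phosphatases did not pass the test. Dusp1, whose product acts on p38, JNK and ERK and whose gene is an immediate early gene, stood at 768, 718 and 790 CPM in control libraries 1, 2 and 3 and at 1460, 699 and 953 CPM in cKO libraries 1, 2 and 3. Library 1 of the cKO group was high and library 2 lay below every control library. This gave a log2FC of 0.45 (SE 0.22, 95% confidence interval -0.029 to 0.93, edgeR adjusted p = 0.206), and without cKO library 1 it was 0.12. The coefficient of variation of Dusp1 was 4.87% among the control libraries and 37.2% among the cKO libraries.

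Dusp2 encodes a nuclear phosphatase found mostly in blood cells. It stood at 125, 116 and 105 CPM in the control libraries and at 218, 107 and 176 CPM in the cKO libraries, so that cKO libraries 1 and 3 were above the controls and cKO library 2 was among them. Its log2FC was 0.54 (SE 0.22, 95% confidence interval 0.058 to 1.02, unadjusted p = 0.0315, edgeR adjusted p = 0.138). Without cKO library 2 it was 0.77 and passed (edgeR adjusted p = 0.0252), and without cKO library 1 it was 0.30 (edgeR adjusted p = 0.428). For both Dusp1 and Dusp2 the cKO libraries stood in the order 1, 3, 2 from high to low, and a list of 20 immediate early genes summed to 8250, 5690 and 3970 CPM in the same order, a measure whose part in these values was not tested.

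Dusp5, whose product is a nuclear phosphatase selective for ERK, had the highest CPM of the 10 genes in the cKO libraries on average. It stood at 1390, 623 and 766 CPM in the control libraries and at 1400, 1160 and 1480 CPM in the cKO libraries. Control library 1 lay among the cKO libraries and the other 2 controls lay below all of them. The log2FC was 0.54 (SE 0.25, 95% confidence interval -0.015 to 1.09, edgeR adjusted p = 0.192). Without control library 1 it was 0.95 and passed (edgeR adjusted p = 0.00266), and without control library 2 it was 0.32 (edgeR adjusted p = 0.461).

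Dusp4, which encodes a further nuclear phosphatase, stood at 54.7, 30.6 and 41.0 CPM in the control libraries and at 51.4, 41.0 and 35.1 CPM in the cKO libraries, and the groups overlapped. Between the means the log2FC was 0.013 (SE 0.22, edgeR adjusted p = 0.979), with a 95% confidence interval of -0.48 to 0.51. Dusp10, whose product acts on JNK and p38, stood at 697, 382 and 444 CPM in the control libraries and within 549 to 562 CPM in the cKO libraries. Its log2FC was 0.13 (SE 0.19, 95% confidence interval -0.30 to 0.55, edgeR adjusted p = 0.721). As for Dusp5 and Dusp4, control library 1 was the highest of the controls. Without it the log2FC of Dusp10 was 0.42 (edgeR adjusted p = 0.0174), and without control library 2 it was -0.044.

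Among the genes acting above Raf, Spry1 was nearest to the threshold. Spry1 encodes a Sprouty protein that restrains Ras and ERK signaling below receptors, the T cell receptor among them. It stood at 48.1, 42.7 and 60.9 CPM in control libraries 1, 2 and 3 and at 28.6, 30.6 and 42.1 CPM in cKO libraries 1, 2 and 3. The groups were apart, though control library 2 and cKO library 3 nearly met. Its log2FC was -0.58 (SE 0.19, 95% confidence interval -1.01 to -0.15, edgeR adjusted p = 0.0828), and DESeq2 gave -0.57 with an adjusted p of 0.0439. Leaving out each library in turn gave edgeR adjusted p-values of 0.0706 to 0.241.

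Spred1, whose product brings the Ras inhibitor neurofibromin to the membrane, stood at 17.5, 29.0 and 24.7 CPM in the control libraries and at 15.8, 13.2 and 21.8 CPM in the cKO libraries. The groups overlapped through control library 1. The log2FC was -0.49 (SE 0.25, 95% confidence interval -1.04 to 0.064, edgeR adjusted p = 0.234). Spred2 stood at 22.5, 24.1 and 19.6 CPM in the control libraries and at 25.5, 23.5 and 28.9 CPM in the cKO libraries, with overlap through cKO library 2. Its log2FC was 0.24 (95% confidence interval -0.14 to 0.62, edgeR adjusted p = 0.409). Spry2 had between 64 and 116 counts per library, or 3.22 to 5.35 CPM, and the groups overlapped. Spry2 had a log2FC of 0.27 (edgeR adjusted p = 0.683), with the widest 95% confidence interval of the 10 genes, -0.55 to 1.10.

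Counted together, 1 of the 10 genes had an edgeR adjusted p below 0.05 where 10.4% of all tested genes did, so that the share of the 10 that changed is near the background. Of all tested genes 5.89% fell and 4.47% rose. The fall of Dusp6 also passed the fold threshold, as did 2.76% of all tested genes, 1.23% lower and 1.53% higher. In the higher direction 0 of the 10 genes passed with edgeR, DESeq2 or limma-voom, and 1 of them, Dusp2, had an unadjusted p below 0.05. With Dusp6 and Spry1 in the lower direction this made 3 of 10, against 27.9% of all tested genes. In the lower direction DESeq2 called 2, Dusp6 and Spry1. Control and cKO values were apart for 2 of the 10 genes, as for 33.0% of all tested genes. The median log2FC of the 10 genes was 0.18 with 7 above 0, and that of all tested genes was -0.0017 with 5718 of 11488 above 0. Without cKO library 3, 0 of the 10 genes had an edgeR adjusted p below 0.05. Without control library 1 there were 3, with Dusp5 and Dusp10 higher beside Dusp6 lower, and without cKO library 2 there were 2, with Dusp2 higher beside Dusp6.

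**Figure D3:**
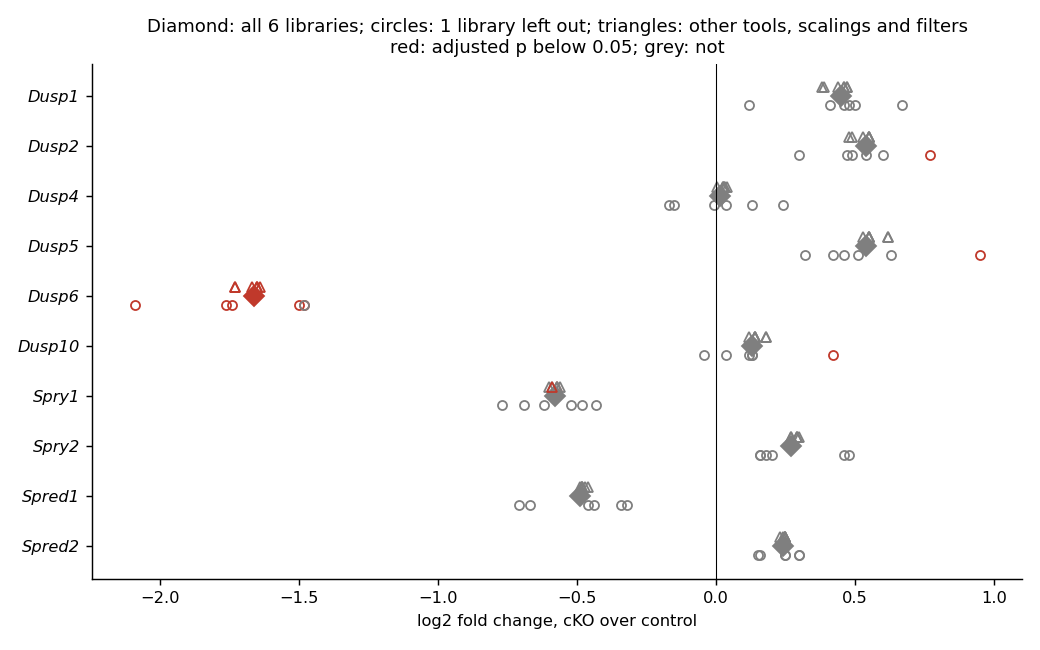
Log2FC, cKO over control (horizontal axis), of each of the 10 genes with all 6 libraries (diamonds), with 1 library left out (circles) and under other tools, scalings, filters or a replicate term (triangles), where red marks an adjusted p below 0.05. Dusp6 stays between -2.09 and -1.48, while the values of Dusp4 and Dusp10 lie on both sides of 0.

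The relatives of these genes were then read for comparison, first the phosphatases directed at JNK and p38. Dusp16 stood at 22.1, 15.7 and 11.2 CPM in the control libraries and at 57.9, 28.1 and 60.1 CPM in the cKO libraries, and every cKO library lay above every control library. Its log2FC was 1.58 (SE 0.32, edgeR adjusted p = 0.0148). Dusp8 stood at 14.7, 3.55 and 5.67 CPM in the control libraries and at 34.1, 16.4 and 23.3 CPM in the cKO libraries, again without overlap, and its log2FC was 1.63 (SE 0.46, edgeR adjusted p = 0.0497). Dusp8 lost the call without any single library other than control library 1, and with total counts in place of TMM. Dusp16 lost it without control library 2 (edgeR adjusted p = 0.0539), without cKO library 1 (0.0638) and without cKO library 3 (0.0809). Dusp7, like Dusp6 a cytoplasmic phosphatase of ERK, had a log2FC of -0.055 (95% confidence interval -1.03 to 0.92, edgeR adjusted p = 0.956) at a mean of 5.52 ± 1.80 CPM in the control libraries (S.D., n = 3). Dusp9, the remaining cytoplasmic one, was not tested for lack of counts. The difference between the changes of Dusp6 and of its relatives was not tested.

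**Figure D4:**
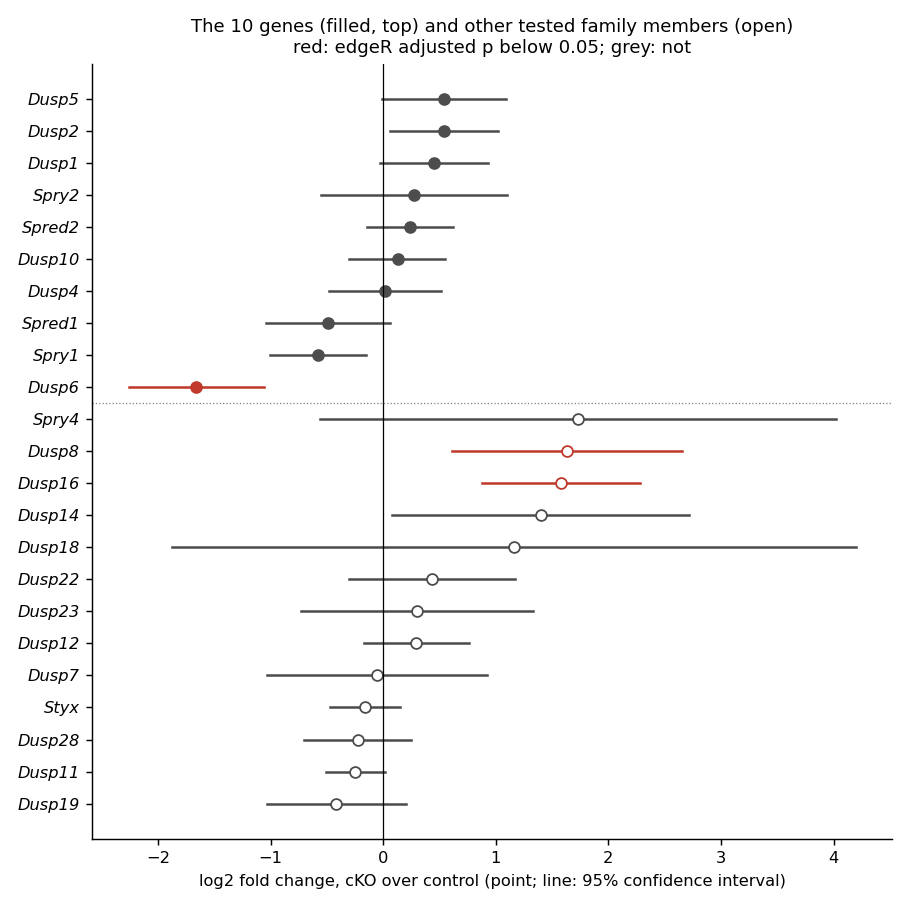
Log2FC, cKO over control (horizontal axis), with its 95% confidence interval for the 10 genes (filled points, above the dotted line) and the other tested Dusp, Styx and Sprouty genes (open points), where red marks an edgeR adjusted p below 0.05. Dusp6 at -1.66 lies below 0, and Dusp8 at 1.63 and Dusp16 at 1.58 lie above it.

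Of 13 atypical dual-specificity phosphatases, small enzymes that mostly lack the kinase-binding part of the MAPK phosphatases, 9 were tested. With edgeR, DESeq2 and limma-voom 0 of them had an adjusted p below 0.05, and 1 had an unadjusted edgeR p below 0.05. Of the other Sprouty and Spred genes only Spry4 was tested, with a log2FC of 1.73 (SE 1.03, edgeR adjusted p = 0.309) at a control mean of 0.350 CPM, which is near the lower end of what these libraries measure.

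Genes of the kinase core did not pass the test. Of 14 genes of the Ras, Raf, MEK and ERK core, all 14 were tested and 0 had an edgeR adjusted p below 0.05, with a median log2FC of -0.097. By unadjusted edgeR p below 0.05, 1 was higher and 2 were lower, and DESeq2 called 1 as higher and limma-voom 0.

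Of 6 tested Ras GTPase-activating genes, which turn Ras off, 2 fell, 0 rose and 4 did not pass, with a median log2FC of -0.071, where 5.89% of all tested genes fell. Rasal3 fell from 727 ± 70.4 to 316 ± 54.9 CPM (n = 3 each, ± S.D.), a log2FC of -1.20 (SE 0.14, edgeR adjusted p = 0.00365), and it kept its call with any 1 library left out. Rasa3 had a log2FC of -0.59 (edgeR adjusted p = 0.0200). Of 13 tested Ras activators and adaptors 3 fell and 0 rose. These were Dgka, Dgkz and Lcp2, with log2FC values of -0.84, -0.86 and -0.43 (edgeR adjusted p = 0.00869, 0.00870 and 0.0395). Lcp2 encodes the adaptor SLP-76, while Dgka and Dgkz encode diacylglycerol kinases, which remove the lipid that recruits RasGRP1 and so limit Ras, against the name of the list. Without cKO library 3 the adjusted p was 0.0510 for Dgka, 0.0545 for Dgkz, 0.101 for Rasa3 and 0.164 for Lcp2. Rasa3 also lost the call without control library 2, cKO library 1 or cKO library 2, and Lcp2 without any single library other than control library 1. Rasa3, Dgka, Dgkz and Lcp2 were named after their values were seen.

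In the JNK and p38 cascade 2 of 19 tested genes rose and 0 fell. This was 10.5%, near the 10.4% of all tested genes with an edgeR adjusted p below 0.05. Gadd45b, an activator of the kinase above p38 and JNK, rose from 13.8 ± 8.30 to 66.1 ± 35.3 CPM (n = 3 each, ± S.D.), a log2FC of 2.27 (edgeR adjusted p = 0.0167). Map2k3, a kinase that activates p38, had a log2FC of 0.47 (edgeR adjusted p = 0.0400) and was named after its value was seen. Among 16 tested nuclear factors downstream of MAPK, 12.5% had an edgeR adjusted p below 0.05, also near that share. Crem rose with a log2FC of 1.24 (edgeR adjusted p = 0.0216) and Elk3 fell with -0.92 (edgeR adjusted p = 0.0223, also named after its value was seen). The Ets genes Ets1 and Ets2, whose products ERK phosphorylates, had log2FC values of -0.18 and 0.017 (edgeR adjusted p = 0.270 and 0.946). Etv5 had 0.13 (edgeR adjusted p = 0.871), and Etv4 was at 0 in every library. Gadd45b, Crem and Elk3 each lost the call without control library 2, control library 3, cKO library 1 or cKO library 3, and Map2k3 lost it without any single library other than control library 1.

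Immediate early genes, which are switched on within minutes of MAPK signaling, held the most calls among these lists. Of 19 tested, 9 rose, 0 fell and 10 did not pass, with a median log2FC of 1.01, where 4.47% of all tested genes rose. With all libraries, the fold changes past the threshold were highest for Atf3 at 3.84, Ier3 at 2.59 and Fosb at 2.59 (edgeR adjusted p = 0.0330, 0.0347 and 0.0231). Atf3 was measured on few reads, where control libraries 1, 2 and 3 gave 0, 4 and 9 and cKO libraries 1, 2 and 3 gave 111, 32 and 37. Fosb was high in cKO library 1, at 1126 counts against 167 and 312 in cKO libraries 2 and 3, and its log2FC without that library was 1.49, below Nr4a3 at 2.22 and Nr4a2 at 2.11. Fosb and Atf3 also lost the call under limma-voom (adjusted p = 0.0752 and 0.0541). Ier3 had a log2FC of 3.84 without control library 1. Egr1, Fos and Myc did not pass, with log2FC values of 0.20, 0.34 and 0.16 (edgeR adjusted p = 0.413, 0.662 and 0.606). DESeq2 called 10 of these genes as higher and 1 as lower, and limma-voom called 6 as higher. Of the 9 genes that rose, Fosl2 alone (log2FC 1.90, edgeR adjusted p = 0.00473) kept its call with each library left out in turn. Ier3 and Fosb lost it without control library 2, control library 3, cKO library 1 or cKO library 3, and Atf3 without any single library other than control library 1.

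Over the 9 lists together, without the 10 feedback genes, 14 of 100 tested genes rose and 6 fell, or 20.0%. Of all tested genes 10.4% had an edgeR adjusted p below 0.05. Among the 14 that rose, 9 were immediate early genes, while 0 of 14 genes of the Ras, Raf, MEK and ERK core passed. Without cKO library 3 the numbers that rose and fell were 1 and 1, and without cKO library 1 they were 4 and 3. Without control library 2 they were 5 and 3, without control library 3 they were 5 and 4, and without control library 1 they were 17 and 11. Without the 10 feedback genes, the MAPK signaling pathway that the deposited table assigns by KEGG held 185 tested genes. Of these 12 rose and 8 fell, or 10.8%, with a median log2FC of -0.041. Genes of the 9 lists were not taken out of this pathway, so the sets may share genes.

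**Figure D5:**
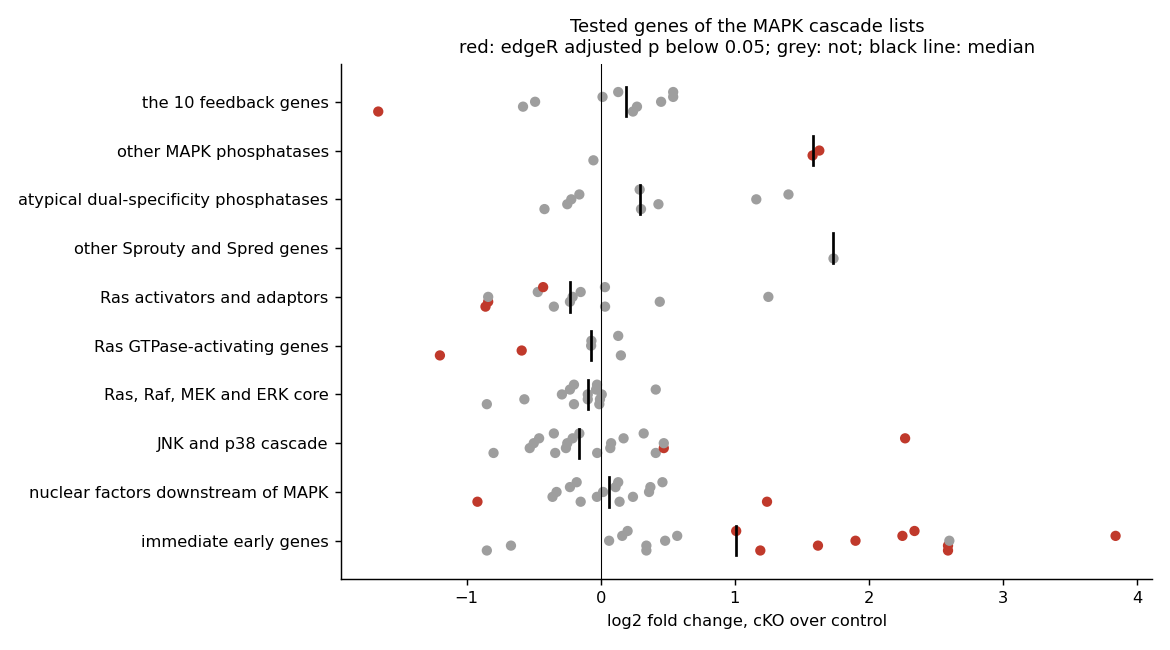
Log2FC, cKO over control (horizontal axis), of each tested gene in the lists of the MAPK cascade (rows), where red points have an edgeR adjusted p below 0.05 and black lines mark medians. The immediate early genes have a median of 1.01 and 9 red points, and the Ras, Raf, MEK and ERK core has a median of -0.097 and 0 red points.

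Genes with the profile most like each of the 10 were sought among 9204 genes with a mean of at least 5 CPM, by the mean absolute difference between log2 CPM values centred on each gene's mean over the 6 libraries. For Dusp6 these were Faah at a difference of 0.191 and Rab37 at 0.195, with log2FC values of -1.57 and -1.45 (edgeR adjusted p = 0.00365 and 0.0154). For Dusp1 the nearest was Kdm6b, at 0.0588, and for Dusp2 it was Slc66a2, at 0.0740. For Dusp5 it was Zfp655, at 0.0344, and for Dusp10 it was Marchf7, at 0.0369. For Spry1 it was Mthfsd, at 0.0768. The nearest genes of Dusp4, Spry2, Spred1 and Spred2 were Carns1, Zranb1, Zfp672 and Map3k11, at 0.0571, 0.0288, 0.0690 and 0.0323. Of the 10 genes Dusp6 thus stood farthest from its nearest gene, though this distance is not scaled to how much a gene varies. Dusp6 also had the largest fold change of the 10, so its distance cannot be read apart from that size. None of the nearest genes was another of the 10, which carries little weight with 9204 genes to choose from.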

How the data were processed

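RNA was extracted from sorted DP thymocytes, cDNA was pre-amplified and libraries were sequenced on an Illumina instrument, as the study's methods state. The deposited table holds the authors' read counts per gene and library without normalization, and their FPKM values, in which counts are set against gene length and depth. The authors' group means, log2 fold change, p-value and FDR columns were not used, and 0 columns of single libraries were left out. The submitters' processing notes name fastp 0.18.0, Bowtie2 2.2.8, HISAT2, StringTie and RSEM without their roles, with a build and annotation not given in the sources used here.

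Deposited counts were tested with edgeR 4.0.16 in R 4.3.3 (quasi-likelihood test, TMM factors, genotype as the only term, Benjamini-Hochberg adjustment over all tested genes). Genes were kept by filterByExpr (minimum count 10, minimum total 15). A gene rose or fell at an adjusted p below 0.05, and was past the threshold where the absolute log2 fold change was also above 1. Nearest profiles used log2 CPM with a prior count of 2. DESeq2 1.42.0, limma-voom (limma 3.58.1), other scalings and filters, a replicate term and the omission of each library in turn served as alternatives. No 2 libraries of a group were duplicates (chi-square per degree of freedom 19.1 to 64.9). The scripts were tested on simulated counts.

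The 10 genes and all lists were chosen with earlier results of these data known. Beside the 10, the genes named are those past the threshold in the lists of the MAPK cascade (at most 3 of each direction per list), those with the nearest profiles and those that overlap the 10 by position. Other genes were chosen after their values were seen (Dusp7, Dusp9, Spry4, Rasa3, Dgka, Dgkz, Lcp2, Map2k3, Elk3, Ets1, Ets2, Etv4, Etv5, Fosl2, Nr4a2, Nr4a3, Egr1, Fos, Myc, Adgre1, Mertk, Marco, Vsig4, Hspa8, Hspa1a and Dnajb1). Paxbp1 was named as the deleted gene, and Cd4, Cd8a and Rag1 as examples of DP thymocyte genes. Of the lists not shown in the report, 1 of 8 tested T cell receptor activation genes rose and 0 fell, and 2 of 7 glucocorticoid targets fell and 0 rose. For B cells 1 of 4 tested markers fell, for thymic epithelial cells 1 of 3 and for erythroid cells 0 of 5 (0 at an unadjusted p below 0.05 and 0 by DESeq2 or limma-voom). None of 8 neutrophil markers was tested. Some genes of the lists are not reported here by name.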

Additional observations from a re-analysis of the deposited data

How the results depend on the processing

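Under DESeq2, 288 genes were higher and 949 had an adjusted p below 0.05 in the higher direction, against 176 and 514 with edgeR. Of the 10 feedback genes 2 were lower under DESeq2 and 2 with the replicate number as a block, against 1 in the report, and in both cases the added gene was Spry1 (edgeR adjusted p = 0.0438 with the block). The block rests on replicate numbers, and these sources do not say whether same-numbered libraries are paired. The deviations of same-numbered libraries correlated at 0.0451, 0.0377 and -0.0300. Those of control library 2 and cKO library 3 correlated at 0.0401, so some but not all libraries correlated best with their own number. With 3 libraries per group these values cannot show whether the samples are paired. With 1 library left out in turn, 28 to 270 genes were higher and 45 to 184 lower past the threshold, and 42 to 1000 were higher and 78 to 1030 lower at an adjusted p below 0.05. In each case the lowest count came without cKO library 3 and the highest without control library 1. Of the 10 feedback genes, 0 to 1 were lower, with or without the fold threshold, and 0 to 2 higher at an adjusted p below 0.05. In the cascade lists 1 to 17 genes were higher and 1 to 11 lower. With 1 library left out the log2FC of Dusp4 lay between -0.17 and 0.24 and that of Dusp10 between -0.044 and 0.42. The sign of Dusp4 turned without control library 2 (-0.17), without control library 3 (-0.006) and without cKO library 1 (-0.15), and that of Dusp10 without control library 2. The cause of these shifts was not tested, beyond the smaller number of libraries. The other scalings and filters (RLE factors, total counts alone, no filter, a mean of at least 5 CPM) changed no call among the 10 feedback genes, and for Spry2 the stricter filter gave no value.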
